A study of Mus musculus with 6 samples.

Results

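The EGF receptor family and its ligands were described in cultured mouse keratinocytes with and without DNMT1. The members were chosen by name, with earlier results of these data known, and are 10 of the 43629 genes in the count table. They comprise 3 ErbB receptor genes (Egfr, Erbb2 and Erbb3) and 7 genes of EGF-like ligands (Areg, Ereg, Hbegf, Tgfa, Btc, Epgn and Nrg1). All 10 were found and all 10 passed the filter on low counts. The libraries came from epidermal keratinocytes of 3 control and 3 Dnmt1Δ/Δep mice, all labelled female, isolated at P3 and cultured for 5 days in keratinocyte growth medium with low calcium and chelated serum on collagen and fibronectin. Dnmt1Δ/Δep mice carry K5-Cre, which acts in cells that express keratin 5, and 2 floxed alleles of Dnmt1, whereas control mice have floxed Dnmt1 alleles (Dnmt1 f/f or Dnmt1 f/+) without Cre. A figure legend of the study gives a shorter culture time than the labels and methods do. Which of both control genotypes each library had is not given in the sources used here. All mice had a mixed C57BL/6J and 129SV background. The labels number the libraries of each group from 1 to 3, and the methods call the replicates biological. The study used these cultures to ask whether the innate immune response to DNMT1 loss arises in keratinocytes on their own.

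ErbB receptors are receptor tyrosine kinases that pair when a ligand binds. EGFR is the main receptor of the family in basal keratinocytes, ERBB2 has no ligand of its own and serves as a partner, and ERBB3 binds neuregulins but has little kinase activity. The ligands are made as transmembrane precursors and released by ADAM proteases. Amphiregulin (Areg), TGFα (Tgfa) and epigen (Epgn) act on EGFR, whereas epiregulin (Ereg), HB-EGF (Hbegf) and betacellulin (Btc) act on both EGFR and ERBB4, and neuregulin 1 (Nrg1) on ERBB3 and ERBB4. In skin, these factors are known for autocrine control of keratinocyte proliferation, migration and wound repair, and EGFR signaling is known to raise the transcription of several of its own ligands.

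Reads counted on genes numbered between 53433121 and 115526598 per library. Dnmt1, the deleted gene, lay between 324 and 394 CPM (the count scaled to the size of the TMM-normalized library) in control and between 49.7 and 54.3 CPM in Dnmt1Δ/Δep libraries, so that it was lower by a log2 fold change of −2.83 ± 0.11 (SE; adjusted p = 8.1e-05 by edgeR's quasi-likelihood F-test). The keratinocyte label held for all libraries, in which the 12 keratinocyte markers summed to 15691 to 17689 RPKM (CPM per kilobase of merged exons) in control and to 11684 to 12228 RPKM, lower without overlap, in Dnmt1Δ/Δep libraries. Taken singly, 2 of the 12 were lower and 1 was higher without overlap (11.7% and 18.2% of all genes), so the sum does not describe each marker. Basal keratins were lower in Dnmt1Δ/Δep cells, with a log2 fold change of −0.50 for Krt5 (adjusted p = 0.038, edgeR) and −0.61 for Krt14 (adjusted p = 0.028, edgeR), and Epcam was higher (0.69, adjusted p = 0.040, edgeR). In bulk RNA, a change in the number of cells of one type and a change in RNA per cell cannot be told apart.

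In control keratinocytes, the 3 receptors had nearly the same level per length, and epigen was the ligand with the highest level. The mean was 45.5 ± 8.15 RPKM for Epgn, 21.0 ± 5.53 for Erbb3, 21.0 ± 2.30 for Egfr and 20.01 ± 4.99 for Erbb2 (SD, n = 3). The ranges of the receptors overlapped one another, and each control library had more Epgn than any library had of a receptor. Tgfa followed with 8.25 ± 0.454 RPKM (SD, n = 3), below all receptors and above all other ligands in each control library. Hbegf (3.84 ± 1.79), Nrg1 (3.38 ± 1.52), Areg (3.22 ± 0.908) and Ereg (3.02 ± 0.762 RPKM; SD, n = 3) had overlapping ranges, so that their order is not set by these libraries. Btc was the lowest, with 0.518 ± 0.148 RPKM (SD, n = 3). Among the 16713 tested genes with a length, Epgn lay above 93.4%, each receptor above 83.1% to 83.7% and Btc above 28.4%.

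In Dnmt1Δ/Δep keratinocytes, 4 ligands came closer to the receptors in this order. Epgn again had the highest level, with 64.9 ± 6.44 RPKM (SD, n = 3). The receptors followed at 17.6 to 19.9 RPKM on average, and Tgfa (15.5 ± 1.84), Hbegf (13.4 ± 3.02), Areg (11.5 ± 4.51) and Ereg (10.3 ± 3.58 RPKM; SD, n = 3) came next, each overlapping its neighbor in this order. Nrg1 (3.62 ± 0.383 RPKM) and Btc (1.15 ± 0.198 RPKM; SD, n = 3) were below these without overlap. The order depends on the length used where a gene has long alternative exons. Per length of the longest transcript, Hbegf (22.4 RPKM) and Tgfa (22.2 RPKM) stood above the receptors on average in Dnmt1Δ/Δep cells, with ranges that overlapped that of Erbb3.

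**Figure D1:**
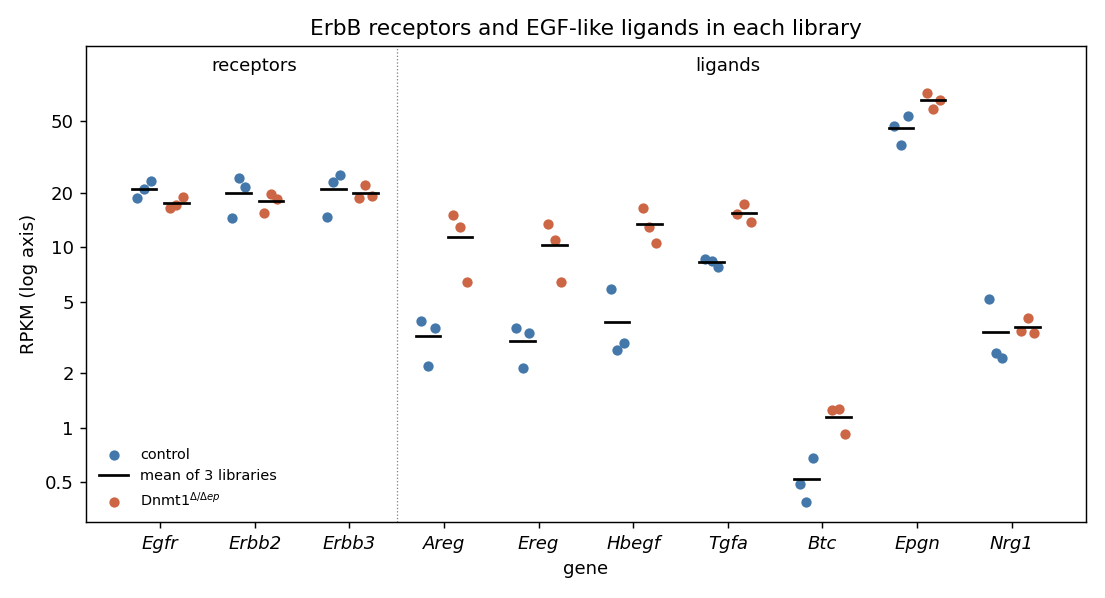
RPKM of the 3 ErbB receptors and 7 EGF-like ligands (log axis), with a point for each control library (blue) and each Dnmt1Δ/Δep library (orange) and a line at the mean of 3 libraries. The groups do not overlap for Areg, Ereg, Hbegf, Tgfa, Btc and Epgn, and they overlap for the 3 receptors and Nrg1.

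A gene was called upregulated or downregulated where the adjusted p was at most 0.05 and the log2 fold change at least 1 in that direction. Of the 10 members, 4 were upregulated in Dnmt1Δ/Δep keratinocytes and 0 downregulated. The upregulated genes were the ligands Areg, Ereg, Hbegf and Btc. Over all 16829 genes tested, 6.03% were upregulated and 0.392% downregulated by this rule. At the adjusted p alone, 5 members rose (the same 4 and Tgfa) and 0 fell, against 7.71% and 1.66% of all genes. By the raw p at 0.05, 6 were higher and 0 lower, against 15.8% and 7.79% of all genes, and DESeq2 called the same 4 up and 0 down. The median log2 fold change was 1.16 over the 7 ligands, −0.16 over the 3 receptors and −0.00 over all genes tested. Both groups were free of overlap in 6 of the 7 ligands, all higher in Dnmt1Δ/Δep cells, where 18.2% of all genes were higher and 11.7% lower without overlap. The count of 4 depended on single libraries, being 0 when replicate 2 of either group was left out and 1 when Dnmt1Δ/Δep replicate 1 was. Over all genes, upregulated genes also fell in number in these fits, from 1014 to 559 and 682 without control and Dnmt1Δ/Δep replicate 2 and to 591 without Dnmt1Δ/Δep replicate 1. Members past the adjusted p numbered 1 without a replicate 2 and 2 without Dnmt1Δ/Δep replicate 1. Blocking on the replicate number left 3 upregulated members, without Btc, whereas over all 16829 genes 1173 were then upregulated and 95 downregulated.

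**Figure D2:**
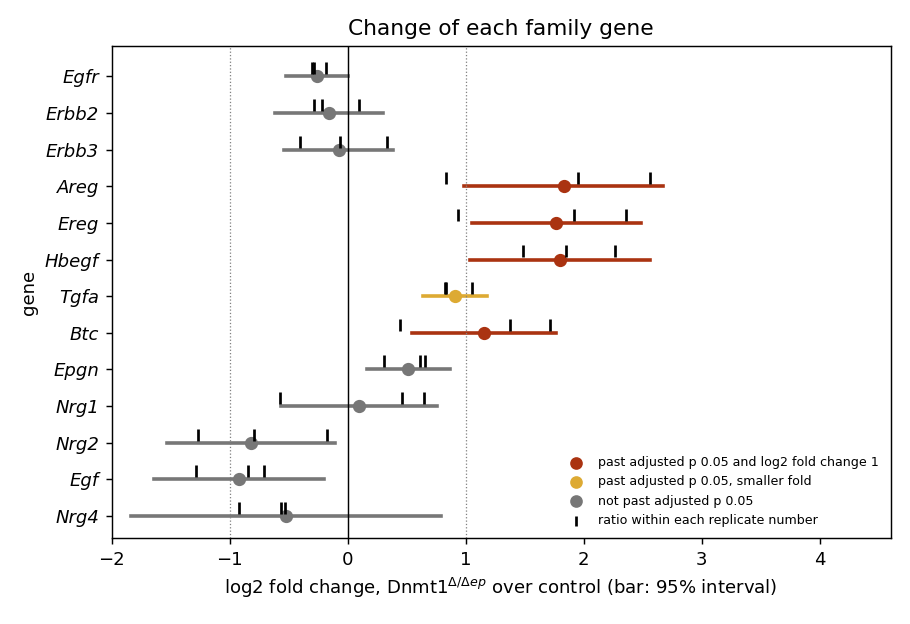
Log2 fold change of each tested family gene in Dnmt1Δ/Δep over control keratinocytes from edgeR (point) with its 95% interval (bar) and the ratio within each replicate number (ticks). Areg, Ereg, Hbegf and Btc passed both thresholds and Tgfa the adjusted p alone, whereas the intervals of the 3 receptors and Nrg1 include 0.

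The receptors were not called, and their intervals limit any change to less than 2-fold. Egfr (ENSMUSG00000020122, GRCm38 chromosome 11, 16752203 to 16918158) had 212, 237 and 264 CPM in control and 187, 195 and 214 CPM in Dnmt1Δ/Δep replicates 1, 2 and 3. Dnmt1Δ/Δep libraries were at the lower end, and the groups overlapped in 1 pair of libraries only. The log2 fold change was −0.26, with a 95% interval from −0.52 to 0.01 (adjusted p = 0.22, edgeR). Erbb2 (chromosome 11, 98412470 to 98437716) had 75.1, 125 and 113 CPM in control and 80.3, 103 and 96.8 CPM in Dnmt1Δ/Δep libraries. The lowest library of either group was that of replicate 1, and the log2 fold change was −0.16, with an interval from −0.62 to 0.30 (adjusted p = 0.71, edgeR). Erbb3 (chromosome 10, 128567523 to 128589652) had 88.7, 139 and 152 CPM in control and 112, 133 and 115 CPM in Dnmt1Δ/Δep libraries. The Dnmt1Δ/Δep values lay within the range of the control values. The log2 fold change of Erbb3 was −0.08, with an interval from −0.54 to 0.39 (adjusted p = 0.88, edgeR). Without control replicate 1, it was −0.34 for Egfr, −0.35 for Erbb2 and −0.28 for Erbb3 (adjusted p = 0.077, 0.13 and 0.15, edgeR). The shares of the receptors also overlapped, Egfr making up 34.4% ± 4.26 of the summed receptor RPKM in control and 31.8% ± 2.28 in Dnmt1Δ/Δep cells (SD, n = 3). Erbb4 (chromosome 1) had 0, 0 and 1 counts in control and 0, 1 and 6 counts in Dnmt1Δ/Δep libraries and did not pass the filter, so that this receptor of Ereg, Hbegf, Btc and Nrg1 was close to the limit of detection.

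Areg and Ereg, which encode amphiregulin and epiregulin and are neighbors on chromosome 5, both rose more than 3-fold. Areg (ENSMUSG00000029378, 91139599 to 91148432) had 4.73, 2.66 and 4.36 CPM in control and 18.3, 15.7 and 7.78 CPM in Dnmt1Δ/Δep replicates 1, 2 and 3. Each Dnmt1Δ/Δep library exceeded each control library, and Dnmt1Δ/Δep replicate 3 was the lowest of its group. The increase was 3.56-fold (log2 fold change 1.83, standard error 0.36, adjusted p = 0.022, edgeR). Ereg (ENSMUSG00000029377, 91074622 to 91093646) had 14.7, 8.86 and 13.8 CPM in control and 55.5, 45.4 and 26.4 CPM in Dnmt1Δ/Δep libraries. Its libraries ranked exactly as those of Areg did, with control replicate 2 lowest and Dnmt1Δ/Δep replicate 1 highest. The increase was 3.41-fold (log2 fold change 1.77, standard error 0.31, adjusted p = 0.014, edgeR). For Areg, the adjusted p was 0.081 without control replicate 2, 0.081 without Dnmt1Δ/Δep replicate 1 and 0.075 without Dnmt1Δ/Δep replicate 2 in edgeR. For Ereg, it was 0.052 in both fits that left out a replicate 2, while the log2 fold change stayed at 1.53 or more in all fits that left out 1 library.

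Hbegf (ENSMUSG00000024486), which encodes the heparin-binding ligand HB-EGF, rose 3.47-fold. It had 28.5, 13.04 and 14.2 CPM in control and 80.0, 62.8 and 51.0 CPM in Dnmt1Δ/Δep libraries (log2 fold change 1.80, standard error 0.33, adjusted p = 0.016, edgeR). Replicate 1 was the highest library in both groups, and the ratios within replicate numbers were 1.49, 2.27 and 1.85 on the log2 scale. With the replicate block, the standard error was 0.16 in place of 0.33. Without control replicate 2, Dnmt1Δ/Δep replicate 1 or Dnmt1Δ/Δep replicate 2, the adjusted p was 0.062, 0.066 and 0.053, respectively (edgeR). On chromosome 18, Hbegf lies near the ligand gene Nrg2, and of the genes between them Cystm1 had a log2 fold change of 1.14 (adjusted p = 0.053, edgeR) and Pura and Pfdn1 had values of 0.12 and 0.04. Btc (ENSMUSG00000082361), which encodes betacellulin, had the lowest level of all members and rose 2.23-fold. It had 2.20, 1.76 and 3.07 CPM in control and 5.70, 5.75 and 4.18 CPM in Dnmt1Δ/Δep libraries (log2 fold change 1.16, standard error 0.26, adjusted p = 0.036, edgeR). The groups did not overlap, but Dnmt1Δ/Δep replicate 3 was close to control replicate 3, with a log2 ratio of 0.44 in this pair against 1.38 and 1.71 in the other pairs. Btc was called in only 1 of the 6 fits that left out a library, that without control replicate 3. The adjusted p of Btc was 0.053 without control replicate 1, 0.12 without control replicate 2, and 0.13, 0.13 and 0.052 without Dnmt1Δ/Δep replicates 1, 2 and 3 (edgeR). With the replicate block it was 0.0502.

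Tgfa (ENSMUSG00000029999, chromosome 6, 86195223 to 86275719) encodes TGFα and had the smallest standard error of the ligands. It had 55.9, 54.5 and 50.2 CPM in control and 99.6, 113 and 89.1 CPM in Dnmt1Δ/Δep libraries. All 3 Dnmt1Δ/Δep libraries were far above the narrow range of the control libraries. Tgfa rose 1.88-fold (log2 fold change 0.91, standard error 0.11, adjusted p = 0.0041, edgeR) and stayed below the fold change threshold. Of the members, only Tgfa passed the adjusted p in all 6 fits that left out 1 library, with values up to 0.026. Epgn, which encodes epigen, had 84.1, 66.7 and 96.0 CPM in control and 128, 105 and 119 CPM in Dnmt1Δ/Δep libraries. The groups did not overlap, and the log2 fold change was 0.51 (interval 0.16 to 0.87, adjusted p = 0.081, edgeR). With the replicate block, Epgn passed the adjusted p (0.026, edgeR) at a log2 fold change of 0.52. Nrg1 (chromosome 8, 31814551 to 32884029) had 53.1, 26.8 and 25.2 CPM in control and 35.6, 42.0 and 34.7 CPM in Dnmt1Δ/Δep libraries. Control replicate 1 was the highest library, whereas the other control libraries were below each Dnmt1Δ/Δep library. The log2 fold change of Nrg1 was 0.09 (interval −0.57 to 0.76, adjusted p = 0.90, edgeR). Without control replicate 1 it was 0.52, with an adjusted p of 0.034 (edgeR).

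The other EGF-like ligand genes had low levels in these cultures. Per length, Nrg2 had 1.23 ± 0.500 RPKM in control and 0.696 ± 0.0665 RPKM in Dnmt1Δ/Δep cells (SD, n = 3). It was above the member Btc in control and below Btc in Dnmt1Δ/Δep cells, without overlap. Nrg2, a further neuregulin, had 3.37, 5.61 and 2.59 CPM in control and 1.95, 2.32 and 2.29 CPM in Dnmt1Δ/Δep libraries (log2 fold change −0.82, adjusted p = 0.15, edgeR). Egf had 0.603, 0.677 and 0.763 CPM in control and 0.369, 0.278 and 0.424 CPM in Dnmt1Δ/Δep libraries (log2 fold change −0.92, adjusted p = 0.11, edgeR). Both were lower in Dnmt1Δ/Δep cells without overlap (11.7% of all genes) but did not pass the adjusted p, and 9.82% of the exon sequence of Egf overlaps other genes. Nrg4 had between 5 and 32 counts per library (log2 fold change −0.52, adjusted p = 0.66, edgeR). Nrg3 had 0 counts in each library, which allows up to 3 counts or, at most, 0.0558 CPM, for counting error only.

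Summed over the 7 ligands, transcripts per length were higher in each Dnmt1Δ/Δep library than in any control library, whereas the receptor sums overlapped. The ligand sum was 74.1, 55.3 and 73.8 RPKM in control and 136, 118 and 107 RPKM in Dnmt1Δ/Δep replicates 1, 2 and 3. The receptor sum was 47.9, 68.0 and 70.2 RPKM in control and 50.5, 59.0 and 56.6 RPKM in Dnmt1Δ/Δep replicates 1, 2 and 3. Control replicate 1 lay below each Dnmt1Δ/Δep library, whereas the other control libraries lay above each of them. The mean was 62.0 ± 12.3 RPKM in control and 55.4 ± 4.38 RPKM in Dnmt1Δ/Δep cells (SD, n = 3). For each RPKM of receptor transcript there were 1.14 ± 0.375 RPKM of ligand transcript in control and 2.19 ± 0.437 in Dnmt1Δ/Δep cells (SD, n = 3). Both ranges were apart, at 0.813 to 1.55 and 1.89 to 2.69. Epgn made up 67.2% ± 4.59 of the ligand sum in control and 54.3% ± 6.25 in Dnmt1Δ/Δep cells, Hbegf 5.603% ± 2.09 and 11.02% ± 1.14, and Areg 4.69% ± 0.662 and 9.33% ± 2.90 (SD, n = 3). The share of Tgfa was 12.4% ± 2.45 and 12.96% ± 1.75 (SD, n = 3). These sums describe the listed genes, and no test was made on them.

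**Figure D3:**
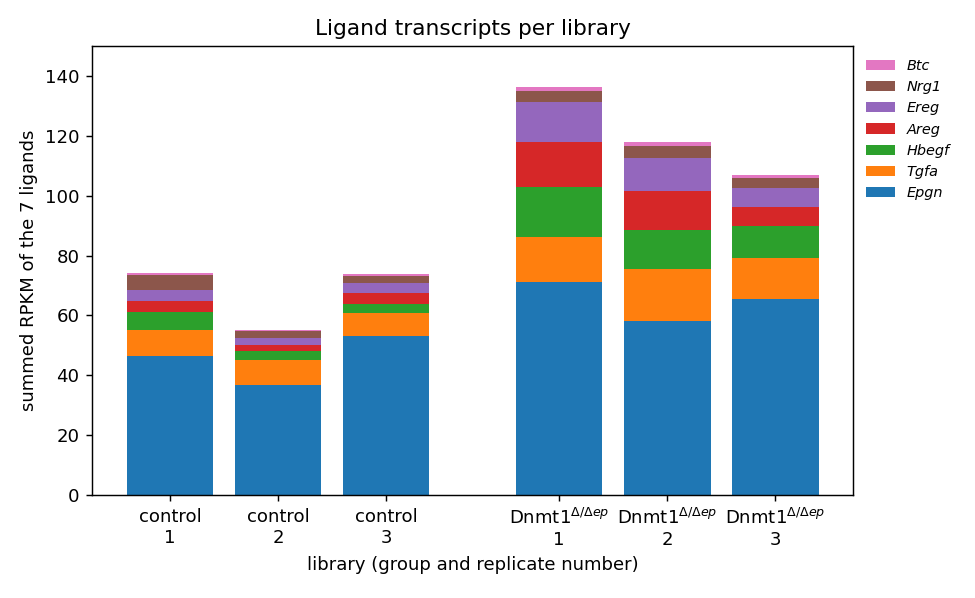
Summed RPKM of the 7 EGF-like ligand genes in each control and Dnmt1Δ/Δep library, stacked by gene. The control libraries reach 55.3 to 74.1 RPKM and the Dnmt1Δ/Δep libraries 107 to 136 RPKM, and Epgn is the tallest part of each bar.

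Epgn, Ereg, Areg and Btc lie in this order on chromosome 5, between 91027464 and 91402994 on GRCm38, with Btc on the opposite strand. The log2 fold changes along this stretch were 0.51, 1.77, 1.83 and 1.16, the larger values being those of the 2 central genes, and differences between these genes were not tested. The snRNA gene Gm23092, between Areg and Btc, had 1 count in 1 library. Ereg shares 3.42% of its exon sequence with the antisense gene Gm19610, and Areg, Btc and Epgn share none with other genes.

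Promoter windows of 300 bases, from 250 bases before to 50 after the start in RefSeq (GRCm38.p6), were matched for 6 of the 10 members. Those of Ereg, Erbb3, Hbegf and Nrg1 were not used here. Windows are shown for Areg, Epgn and Btc of the chromosome 5 stretch and for Tgfa and Egfr, because DNMT1 maintains methylation at CpG and these members differ in how many CpG they hold there. Capitals mark each CpG. The windows are chr5:91139349-91139648 (plus strand), chr5:91027267-91027566 (plus strand), chr5:91402945-91403244 (minus strand), chr6:86194972-86195271 (plus strand) and chr11:16751953-16752252 (plus strand), each written 5′ to 3′.
Areg promoter window: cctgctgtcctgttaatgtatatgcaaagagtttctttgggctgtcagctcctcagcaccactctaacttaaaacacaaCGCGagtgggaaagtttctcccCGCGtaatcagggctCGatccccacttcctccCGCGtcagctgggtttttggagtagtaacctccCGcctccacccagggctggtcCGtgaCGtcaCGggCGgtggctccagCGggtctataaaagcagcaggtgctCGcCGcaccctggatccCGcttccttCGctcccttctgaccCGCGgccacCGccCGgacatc
Epgn promoter window: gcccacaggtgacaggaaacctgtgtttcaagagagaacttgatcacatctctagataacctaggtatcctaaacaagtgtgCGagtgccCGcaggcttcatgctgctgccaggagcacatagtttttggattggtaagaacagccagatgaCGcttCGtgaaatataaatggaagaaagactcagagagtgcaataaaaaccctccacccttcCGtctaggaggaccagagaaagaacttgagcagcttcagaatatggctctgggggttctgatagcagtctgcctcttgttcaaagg
Btc promoter window: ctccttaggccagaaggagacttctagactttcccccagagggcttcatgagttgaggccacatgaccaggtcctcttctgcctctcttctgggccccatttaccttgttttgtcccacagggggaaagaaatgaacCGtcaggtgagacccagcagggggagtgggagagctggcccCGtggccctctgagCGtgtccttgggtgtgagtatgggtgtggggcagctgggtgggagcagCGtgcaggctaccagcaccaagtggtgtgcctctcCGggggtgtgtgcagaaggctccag
Tgfa promoter window: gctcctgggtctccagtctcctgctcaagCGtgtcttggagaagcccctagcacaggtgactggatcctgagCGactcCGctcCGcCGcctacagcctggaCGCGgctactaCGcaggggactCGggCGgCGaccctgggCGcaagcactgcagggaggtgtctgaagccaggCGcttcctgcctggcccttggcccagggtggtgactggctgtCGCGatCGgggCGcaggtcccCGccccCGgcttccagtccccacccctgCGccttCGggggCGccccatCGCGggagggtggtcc
Egfr promoter window: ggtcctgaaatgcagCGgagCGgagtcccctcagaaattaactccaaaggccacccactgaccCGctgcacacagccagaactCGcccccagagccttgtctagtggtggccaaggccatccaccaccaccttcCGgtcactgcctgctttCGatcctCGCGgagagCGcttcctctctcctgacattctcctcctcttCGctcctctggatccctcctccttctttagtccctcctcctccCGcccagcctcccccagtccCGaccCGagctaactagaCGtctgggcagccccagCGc

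The windows of Tgfa and Areg held 24 and 21 CpG, more than 80.0% and 75.2% of the 32851 promoter windows of this length, which had a median of 7. That of Egfr held 15 and that of Erbb2, which is not shown, 21. The windows of Btc and Epgn held 5 each, more than 38.0% of all windows. In these windows, members that rose had both many (Areg, Tgfa) and few CpG (Btc), as did members that were not called (Erbb2 and Epgn). Ereg and Hbegf, which also rose, had no window here, and any link of CpG number to the changes was not tested. The motif TGACGTCA, the cAMP response element, occurred once in the window of Areg and in no other window of a member, and in 1.79% of all windows. TATAAA was found in the windows of Areg and Epgn and in 13.6% of all windows. The AP-1 motif TGACTCA was in no window of a member and in 5.20% of all windows, and GGGCGG was in those of Areg, Tgfa and Egfr and in 35.7% of all windows. Motifs were searched on both strands, and none of them contains another. A match describes the letters of the window only, and methylation was not measured in these libraries.

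The genes whose profile over the 6 libraries was most like that of Areg and of Ereg were each other. Their distance, the root of the summed squared differences of log2 CPM centred on the mean of each gene, was 0.19, the smallest among 12430 genes with at least 1 CPM. The lipase gene Liph was next for both (0.38 from Areg and 0.39 from Ereg), followed by 4732419C18Rik. Closest to Hbegf were Dlgap1 (0.34), Gprc5a (0.34) and Fcmr (0.35). Closest to Tgfa were Dusp18 (0.18), Kifc3 (0.18) and Ehbp1l1 (0.22), and closest to Btc were Sh3kbp1 (0.26), Pglyrp3 (0.31) and the kallikrein gene Klk8 (0.35). These distances describe 6 libraries of both groups and were not tested.

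Genes for the release of the ligands were not called. Of 12 genes for shedding and maturation tested, 0 rose and 0 fell at the adjusted p (edgeR), whereas by the raw p 4 were higher and 0 lower (15.8% and 7.79% of all genes), and the median log2 fold change was 0.14, beside −0.00 over all genes. DESeq2 called 1, the protease gene Adam19 (1.76, adjusted p = 0.014), whose log2 fold change was 1.80 in edgeR (adjusted p = 0.12). Adam8 had the highest level, with 103 ± 12.6 RPKM in control and 101 ± 5.52 in Dnmt1Δ/Δep cells (SD, n = 3; log2 fold change −0.02, adjusted p = 0.94, edgeR). Adam17, which encodes the main sheddase of EGFR ligands, had 14.0 ± 0.555 and 16.4 ± 0.387 RPKM (SD, n = 3) without overlap between the groups, a log2 fold change of 0.22 (adjusted p = 0.16, edgeR). It was named after its values were seen, as were Adam19 and Rhbdf1, which encodes the iRhom1 partner of ADAM17, with a log2 fold change of 0.39 (adjusted p = 0.055, edgeR).

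Of 25 adaptors and effectors tested, 0 passed both thresholds in edgeR and 0 in DESeq2. At the adjusted p alone 2 rose and 0 fell, a share near the 7.71% higher over all genes. The 2 were Gab1, a docking protein of receptor tyrosine kinases (log2 fold change 0.84, adjusted p = 0.0498, edgeR), and the kinase gene Src (0.43, adjusted p = 0.045, edgeR). By the raw p, 2 were higher and 2 lower (15.8% and 7.79% of all genes), and the median was −0.04. Akt1 had the highest level, at 93.8 ± 8.55 RPKM in control and 91.9 ± 6.03 RPKM in Dnmt1Δ/Δep cells (SD, n = 3; log2 fold change −0.03, adjusted p = 0.93, edgeR).

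Among 23 inhibitors of the receptors and of the ERK pathway, 2 were upregulated and 0 downregulated, beside 6.03% and 0.392% of all genes, and Dusp6 rose at the adjusted p alone. By the raw p, 7 were higher and 1 lower (15.8% and 7.79% of all genes), and 7 were higher without overlap (18.2% of all genes). Both called genes and Dusp6 encode phosphatases that act on MAP kinases. Dusp4 rose from 1.97 ± 0.0443 to 8.87 ± 2.62 RPKM (SD, n = 3), a log2 fold change of 2.17 ± 0.23 (SE; adjusted p = 0.0022, edgeR), and was called in each of the 6 fits that left out 1 library. Dusp5 rose from 10.02 ± 2.84 to 21.1 ± 3.29 RPKM (SD, n = 3; log2 fold change 1.07, adjusted p = 0.023, edgeR), but 22.1% of its exon sequence overlaps a gene on the opposite strand. It was called in 2 of the 6 fits, and the adjusted p was 0.099 and 0.058 when control replicates 2 and 3, and 0.092 and 0.088 when Dnmt1Δ/Δep replicates 1 and 2 were left out (edgeR). Dusp6 had a log2 fold change of 0.87 (adjusted p = 0.045, edgeR). Errfi1, the feedback inhibitor of EGFR with the highest level of this list, had 57.0 ± 5.41 RPKM in control and 47.6 ± 6.10 RPKM in Dnmt1Δ/Δep cells (SD, n = 3; log2 fold change −0.26, adjusted p = 0.28, edgeR). DESeq2 called 4, beside 1393 of 20355 genes up, among them Spry4 and Spred3, which encode inhibitors of RAS and ERK signaling. In edgeR these had log2 fold changes of 1.62 (adjusted p = 0.062) and 1.05 (adjusted p = 0.055), and with the replicate block Spred3 was called (1.02, adjusted p = 0.015). Without control replicate 1, 5 genes of this list were upregulated (Dusp4, Dusp5, Dusp6, Spry4 and Spred3), beside 1183 of the 17219 genes tested in that fit. The median of the list was 0.17.

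Of 22 genes known to respond to growth factors, 3 were upregulated and 0 downregulated, and 5 rose and 0 fell at the adjusted p alone, where 6.03% of all genes were upregulated and 7.71% rose. By the raw p, 8 were higher and 0 lower (15.8% and 7.79% of all genes), and the median log2 fold change was 0.42. Plau, which encodes urokinase, rose from 26.3 ± 5.03 to 95.2 ± 15.7 RPKM (SD, n = 3), a log2 fold change of 1.85 ± 0.18 (SE; adjusted p = 0.0014, edgeR), and was called in each of the 6 fits without 1 library. Fosl1, a subunit of AP-1, had a log2 fold change of 1.48 (adjusted p = 0.037, edgeR), and Phlda1 one of 1.19 (adjusted p = 0.048, edgeR). In Fosl1, 57.2% of the exon sequence overlaps Ccdc85b on the opposite strand, and in Phlda1 33.0% overlaps Gm28592. Whether the counting used the strand is not given in the sources used here. Fosl1 was called in 2 and Phlda1 in 1 of the 6 fits that left out a library. Both were lost when control replicate 2 or 3 or Dnmt1Δ/Δep replicate 1 or 2 was left out, where the adjusted p was 0.13, 0.087, 0.13 and 0.11 for Fosl1 and 0.16, 0.11, 0.16 and 0.13 for Phlda1 (edgeR). Phlda1 was also lost without Dnmt1Δ/Δep replicate 3 (0.059, edgeR) and, with all libraries, under RLE factors (0.0505) and a filter on RPKM (0.058). Without control replicate 1, 8 genes of this list were upregulated, beside 1183 of the 17219 genes tested in that fit. With the replicate block 5 were, adding Fosb and the urokinase receptor gene Plaur, beside 1173 of 16829 genes. Fosb (0.997, adjusted p = 0.037, edgeR) and Ier2 (0.56, adjusted p = 0.037, edgeR) rose at the adjusted p only. Ier3, with the highest level of this list, had 147 ± 47.0 RPKM in control and 262 ± 57.0 RPKM in Dnmt1Δ/Δep cells (SD, n = 3; log2 fold change 0.83, adjusted p = 0.084, edgeR).

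**Figure D4:**
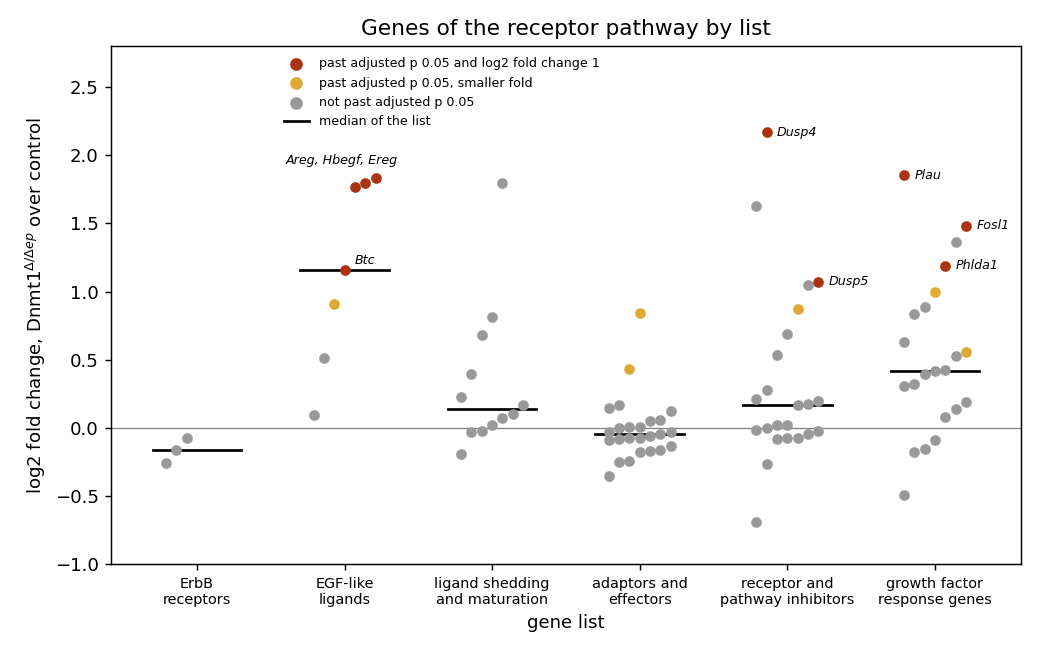
Log2 fold change in Dnmt1Δ/Δep over control keratinocytes (edgeR) of each tested gene of the receptor, ligand, shedding, effector, inhibitor and response lists, with a line at the median of each list. The medians are −0.16 for receptors, 1.16 for ligands, 0.14 for shedding, −0.04 for effectors, 0.17 for inhibitors and 0.42 for response genes, and names are given for genes past both thresholds.

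Other cell types can also express the members, and the summed markers of 3 of 4 such lists were higher in each Dnmt1Δ/Δep library than in any control library. The 10 markers of melanocytes and Schwann cells, which use ERBB3, summed to 74.6 to 194 RPKM in control and 235 to 314 RPKM in Dnmt1Δ/Δep libraries, 7 of 10 being higher without overlap (18.2% of all genes). Of the 10, 0 were called by edgeR, with 6 higher by the raw p (15.8% of all genes). DESeq2 called 2 (Kit and Tyrp1), beside 1393 of 20355 genes up. With the replicate block, edgeR called 3 (Kit, Tyrp1 and Dct, with log2 fold changes of 1.18, 1.14 and 1.02), beside 1173 of 16829 genes up. Of 12 leukocyte markers in the table, 4 were tested and 3 upregulated (Csf1r, Itgam and S100a8), where 6.03% of all genes were. The filter on low counts removed the others and can keep a gene through 1 group alone. The share among the tested markers therefore does not describe the 12. Itgam shares 68.7% of its exon sequence with another gene. The list summed to 34.4 to 83.1 RPKM in control and 133 to 190 RPKM in Dnmt1Δ/Δep libraries. Nearly all of this sum was S100a8, which keratinocytes also express, with 56.9 ± 24.5 and 161 ± 28.3 RPKM (SD, n = 3). The defining marker Ptprc had 0, 0 and 2 counts in control and 12, 1 and 0 counts in Dnmt1Δ/Δep libraries, and Cpa3 and Mcpt4 were at 0 in each library. The 8 fibroblast markers summed to 2.33 to 4.85 RPKM in control and 2.88 to 10.5 RPKM in Dnmt1Δ/Δep libraries with overlap (1 called, Fbn1), and the 5 endothelial markers to 0.865 to 2.18 and 2.69 to 3.78 RPKM (2 called, Pecam1 and Cdh5), beside the same 6.03%. With the replicate block, Fbn1 and Csf1r were not called. The filter on RPKM tests only genes with a mean of at least 1 RPKM in a group, and Csf1r and Itgam were not among its upregulated genes. Of the 6 fits that left out a library, Pecam1 and Cdh5 were called in 6, S100a8 in 4, Csf1r in 3 and Fbn1 and Itgam in 1 each, and without Dnmt1Δ/Δep replicate 1 no leukocyte marker was called. In differentiation keratins, control replicate 1 stood apart from its group, with 12.05 RPKM of Krt1 against 80.6 and 120.1 in the other control libraries and 13.4 to 14.97 in Dnmt1Δ/Δep libraries. The same held for Krt10, with 4.56 RPKM against 15.2 and 14.04, and 2.98 to 4.99 in Dnmt1Δ/Δep libraries. The log2 fold change was −2.30 for Krt1 (adjusted p = 0.085, edgeR, and 0.042, DESeq2) and −1.58 for Krt10 (adjusted p = 0.069, edgeR, and 0.0009, DESeq2). Without control replicate 1, both were downregulated in edgeR (−2.80, adjusted p = 0.00046, and −1.96, adjusted p = 0.0033). In this fit 3 members remained upregulated, Areg, Ereg and Hbegf, beside 1183 of 17219 genes. The part of these cell types and of the differentiation state in the changes of the ligands was not tested.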

How the data were processed

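RNA of cultured keratinocytes was poly(A)-selected and sequenced. The authors trimmed adapters, removed ribosomal reads with bowtie2, aligned with STAR and counted uniquely mapped reads per gene with htseq-count. Raw counts as deposited were used. The methods name a human build for the alignment, whereas the submitters' processing notes list GRCm38 and the table holds mouse Ensembl genes. Entries that name no gene (8.73% to 12.9% of reads) were left out. A deposited table of the authors' comparisons (fold changes, p-values) and the repeat tables were not used. Of 43629 identifiers, 42548 matched a symbol in GENCODE M21, which gave positions and exon lengths.

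The main test was edgeR's quasi-likelihood F-test after filterByExpr (minimum counts 10 and 15) and TMM normalization (factors 0.980 to 1.02), with Benjamini-Hochberg adjustment over 16829 genes. Standard errors were taken from the F statistic and the log2 fold change. A count of 0 was read as up to 3 counts (0.0254 to 0.0558 CPM), which covers counting error only. Tests ran in edgeR 4.0.16 and DESeq2 1.42.0 on R 4.3.3. Figures were drawn with matplotlib 3.10.9 on Python 3.11.15. On simulated counts for this comparison (16829 genes, 200 of them changed by a log2 fold of 2), edgeR recovered 152 with 11 false calls and DESeq2 165 with 33. Same-numbered replicates share a flow cell lane in the file headers, and their deviations from the group means correlated (0.47, 0.40 and 0.31 over 12463 genes). Same-numbered libraries thus varied together, and an effect of the lane and a shared preparation cannot be told apart. The methods state no block, so the main test had none, and the block is an alternative here. Alternatives were DESeq2, RLE factors, 2 other filters, the block and leaving out each library. The named genes are the members, related family genes, genes between them or most alike in profile, and from each list the called genes and that of the highest RPKM. Other pathway and marker genes were named after their values were seen. The members and lists were chosen with earlier results of these data known.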

Additional observations from a re-analysis of the deposited data

How the results depend on the processing

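Of DESeq2, RLE factors, no filter, a filter on RPKM and the replicate block, only the block moved the number of upregulated members, from 4 to 3. When 1 library was left out, upregulated members numbered 0 to 4, members past the adjusted p 1 to 5, and downregulated members 0 in all these fits. The directions that reversed were those of 2 members that were not called. Over these fits, Erbb3 went from −0.28 to 0.073 and Nrg1 from −0.096 to 0.52 on the log2 scale. Nrg1 was also negative when replicate 2 was left out of the control (−0.068) or Dnmt1Δ/Δep group (−0.046). Upregulated inhibitors were 4 with DESeq2, 4 without a filter, 3 with the replicate block and 1 to 5 when a library was left out, against 2 in the test reported. Upregulated response genes were 4 with DESeq2, 4 without a filter, 2 with RLE factors, 2 with the filter on RPKM, 5 with the replicate block and 1 to 8 when a library was left out, against 3. Upregulated genes for shedding were 1 with DESeq2, 1 without a filter and 0 to 1 when a library was left out, and upregulated effectors 0 to 1. Per length of the longest transcript, mean RPKM in control moved to 6.43 for Hbegf, 11.8 for Tgfa and 6.47 for Nrg1, and in Dnmt1Δ/Δep cells to 19.5 for Egfr, 22.4 for Hbegf, 22.2 for Tgfa and 6.91 for Nrg1, since a shorter length divides the same counts. Among the members, the block changed the call of Btc and, at the adjusted p alone, of Epgn. For the other changes the cause was not tested. Over all genes, DESeq2 called 1393 up and 122 down, the replicate block 1173 and 95, and no filter 1294 and 107, against 1014 and 66. The filter on RPKM left 395 and 35, RLE factors 996 and 76, and leaving out a library 559 to 1183 up and 15 to 180 down. Low counts limit the values of Erbb4, Nrg3 and Nrg4, which had few or none, and 3 libraries a group limit all tests.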
